A study of Homo sapiens with 14 samples.

Results

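Wild-type U2AF1 was supplied to A549 cells, a human lung carcinoma line, from either of a pair of constructs that the sample labels call v3 and v1, and the transcriptomes of the cells were compared by RNA sequencing. The comparison rests on 4 of the 14 libraries of the study, chosen by their titles, with 2 libraries of the v3 wild type and 2 of the v1 wild type. In both groups U2AF1 had first been knocked down with siRNA and was then overexpressed from a virus that carried the wild-type gene, so the labels give the construct as the difference between them. The promoter of the virus, the times of treatment and the meaning of v3 and v1 are not stated in the labels, nor whether the replicates were separate cultures. The spread between replicates, and every p-value that rests on it, may therefore be technical. The other 10 libraries, at 2 per group, carried the S34F form of v3 or of v1 after knockdown, an empty vector with siRNA against U2AF1, an empty vector with a control siRNA, or nothing (untreated cells). S34F is a recurrent cancer mutation of U2AF1.

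U2AF1 is the small subunit of U2AF, the factor that marks the 3′ end of introns for the spliceosome. The large subunit, U2AF2, binds the pyrimidine tract, and U2AF1 reads the AG dinucleotide at the splice site itself. The human gene holds a pair of mutually exclusive exons of equal length, so that a mature mRNA normally carries one or the other and encodes one of a pair of closely related proteins.

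The isoform tables showed which of these exons each construct fed. Reads of the v3 libraries were assigned to ENST00000291552 and those of the v1 libraries to ENST00000380276. These transcripts of U2AF1 (ENSG00000160201, chromosome 21, 44513066 to 44527697 in GRCh37) have 8 exons each and share 6 of them. They are 962 and 940 bases long, and besides the start of the first exon they differ in 1 internal exon of 67 bases, on the minus strand at chr21:43100453-43100519 in the first and at chr21:43101366-43101432 in the second (GRCh38). The exons are shown because they are the sequence by which the v3 and v1 libraries can be told apart. They come from the transcripts of GENCODE release 29, and capitals mark the bases at which they differ.
U2AF1 exon in the v3 isoform: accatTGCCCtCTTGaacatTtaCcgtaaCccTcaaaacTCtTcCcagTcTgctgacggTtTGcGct
U2AF1 exon in the v1 isoform: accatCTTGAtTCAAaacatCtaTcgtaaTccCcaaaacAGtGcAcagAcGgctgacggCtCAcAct
Of the 67 positions 44 are identical and 23 differ, and the exons have a GC content of 49.25% and 46.27%. They lie 846 bases apart in the genome.

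The v3 and v1 cells held U2AF1 in opposite isoforms, at total levels that overlapped. In this and all later sentences levels are FPKM, the fragments on a transcript divided by its length and by the mapped fragments of the library, summed over the isoforms of a gene. U2AF1 was at 2366 and 3313 FPKM in the v3 libraries and at 2351 and 2877 FPKM in the v1 libraries. The groups overlapped, and the difference, v3 minus v1, was 0.11 on the scale of log2(FPKM + 1) (SE 0.31, adjusted p = 1 by limma). The empty vector with siRNA against U2AF1 had 22.5 ± 8.97 FPKM and the control siRNA 118 ± 1.37 FPKM (SD, n = 2 each). Both constructs therefore stood far above the level of control cells. FPKM cannot tell a transgene from the endogenous gene.

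ENST00000291552 reached 2258 and 3161 FPKM with v3, against 26.9 and 48.6 FPKM with v1. ENST00000380276 stood at 26.1 and 42.0 FPKM with v3, against 2301 and 2793 FPKM with v1. In each pair of libraries the minor isoform exceeded its level in the knockdown with empty vector, where the first was at 3.90 and 11.1 FPKM and the second at 2.97 and 9.81 FPKM. As a share of the FPKM of the gene, which is called usage here, ENST00000291552 made up 95.44% and 95.43% with v3 and 1.14% and 1.69% with v1, a difference of 94.02 percentage points (SE 4.29, adjusted p = 7.1e-05). For ENST00000380276 the usage was 1.10% and 1.27% with v3 and 97.87% and 97.09% with v1, a difference of -96.30 points (SE 4.35, adjusted p = 7.1e-05). With a model of the 4 compared libraries alone these differences did not pass (adjusted p = 0.183). Untreated cells used both, at 58.7 ± 0.519% and 28.7 ± 1.31%, as did control siRNA cells at 59.8 ± 4.12% and 29.2 ± 1.58%. In neither construct group did the libraries hold the mixture of these cells.

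**Figure D1:**
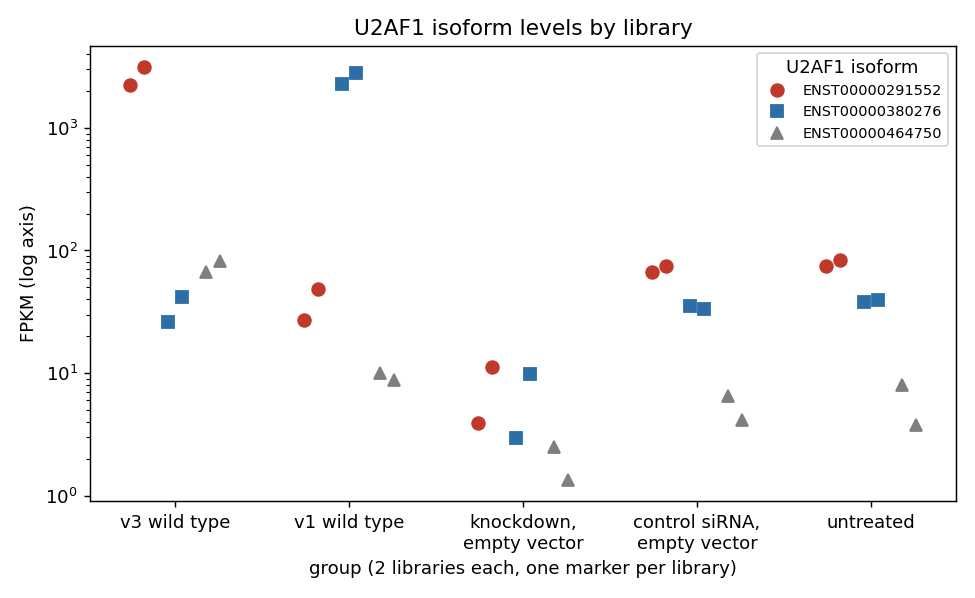
FPKM of 3 U2AF1 isoforms (log axis) in v3 wild type, v1 wild type, the knockdown, the control siRNA and untreated cells, with one marker per library. ENST00000291552 lies at 2258 and 3161 FPKM with v3 and at 26.9 and 48.6 with v1, and ENST00000380276 lies the other way round.

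A transcript that carries both exons also differed. ENST00000464750, which GENCODE types as a target of nonsense-mediated decay, was at 66.5 and 82.0 FPKM with v3 and at 10.0 and 8.75 FPKM with v1. The other libraries of v3, which carried S34F, had 57.8 and 89.9 FPKM of it, and those of v1 S34F had 6.74 and 16.4 FPKM. Its usage was under the limit of 5% set for the test, so the difference is given without one. Whether these reads came from such a transcript, or were assigned to it from the construct, was not tested. The remaining 9 U2AF1 isoforms were each at or below 17.4 FPKM in the v3 libraries and 13.2 FPKM in the v1 libraries.

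The S34F libraries showed the same exchange of isoforms. One of them, replicate 2 of v1 S34F, stood apart, since a single short isoform of AL132768.1 took 33.07% of its FPKM sum. The sum over all its other isoforms was 630700, within the range of the other libraries without their top isoform (583800 to 632700). In the S34F libraries v3 minus v1 was 93.95 points for ENST00000291552 and -96.32 points for ENST00000380276 (94.02 and -96.51 without replicate 2 of v1 S34F). The difference between the wild-type and the S34F constructs, tested as an interaction, was 0.07 and 0.02 points (SE 6.07 and 6.15, adjusted p = 1 for both). Total U2AF1, v3 minus v1, was -0.15 on the log2 scale in the S34F libraries (adjusted p = 1), against 0.11 for the wild type, and it was 0.26 in the S34F libraries without replicate 2 of v1 S34F.

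The 4 libraries were close to each other and of like depth. Relative depth, read from the coverage per FPKM, was 1.075 and 0.904 for v3 and 1.03 and 1.06 for v1, and 13901 to 14433 genes per library reached 1 FPKM. The number of reads is unknown. Across genes, the correlation of log2 values was 0.990 and 0.987 between v3 and v1 libraries of the same replicate number, and 0.978 and 0.977 between the replicates of v3 and of v1. A549 identity was visible in the keratins KRT8 and KRT18, in the NRF2 targets NQO1 and AKR1B10, in ALDH1A1, each at 1189 FPKM or more in all 4 libraries, and in CDKN2A, deleted in this line, which was listed at 0 in all of them. The 18 alveolar and airway markers summed to 23.9 and 29.15 FPKM with v3 and 28.5 and 31.0 FPKM with v1, mostly from the mucin MUC5AC and the lipid transporter ABCA3, with the surfactant gene SFTPC at 0. The 10 fibroblast markers summed to 9.99 and 12.9 FPKM with v3 and 10.3 and 11.65 FPKM with v1, mostly from COL1A1, with DCN at 0.

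Beyond the isoforms of U2AF1, no difference between the constructs passed the test in gene levels. Of 14233 genes with a mean of at least 1 FPKM, none passed an adjusted p of 0.05 (0%), and 150 had an unadjusted p under 0.05 (1.05%), 74 higher and 76 lower with v3. The model has no term for the replicate number, so differences shared by libraries of the same number stay in the spread it estimates. With such a term 345 genes had an unadjusted p under 0.05. With such a term in the 4 compared libraries alone, a setting not planned beforehand, 1009 did. Those 4 libraries without the term gave 187. None passed in any of these fits. A gene or isoform that passes is said to be called. Leaving out replicate 1 or 2 of v3 gave 2 and 1 called genes, and leaving out replicate 1 or 2 of v1 gave 3 and 2. On the log2(FPKM + 1) scale 65 genes (0.457%) differed by at least 1, and the median absolute difference was 0.09. A difference of 1 on this scale is a doubling of FPKM in high genes and more than a doubling in low ones. For single libraries, 117 genes differed by at least 1 between v3 and v1 of replicate 1 and 124 between those of replicate 2. Between the replicates of v3 there were 318 such genes and between those of v1 there were 357. Fewer genes differed by this much between constructs of the same replicate number than between replicates of the same construct.

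The typical difference was smaller at higher expression, with a median absolute value of 0.14 for genes of 1 to 5 FPKM, 0.10 at 5 to 20, 0.07 at 20 to 100 and 0.04 at 100 FPKM or more. The single largest difference lay in the bin of 20 to 100 FPKM, and no gene at or above 100 FPKM differed by 1. The test had limits that can be stated as intervals. For 12596 genes (88.5%) the 95% interval of the difference lay between -1 and 1 on that scale, and its median half-width was 0.45. These intervals are not adjusted for the number of genes, and passing over all genes took a difference larger than the half-width. The spread behind them also holds what libraries of the same replicate number share. Smaller differences could not be told from none, and of the genes that differed by 1 or more none passed. Of the 65 genes that differed by at least 1, 26 had overlapping groups. The groups did not overlap in 21 with v3 higher and in 18 with v3 lower, beside 22.5% of all genes in either direction. A large difference favors such a separation. Several of the 65 were short RNAs such as RNA5SP18, at 0 and 93.2 FPKM with v3 and 0 in both v1 libraries, an example picked after its values were seen.

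**Figure D2:**
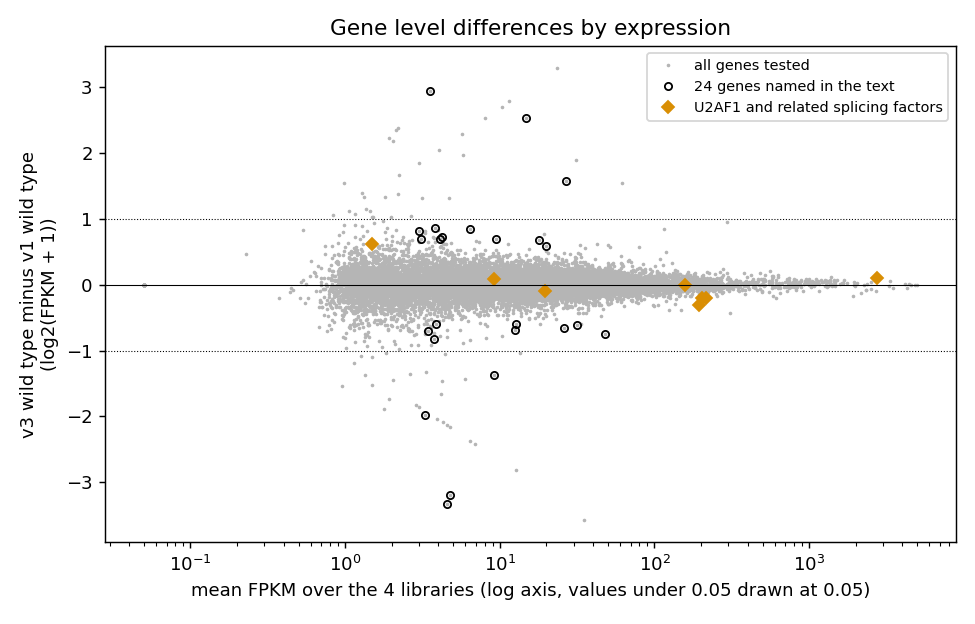
Difference of v3 minus v1 wild type on the log2(FPKM + 1) scale for 14233 genes, against the mean FPKM of the 4 libraries (log axis), with dotted lines at 1 and -1. The bulk of genes narrows with expression, and U2AF1 and related splicing factors lie between the dotted lines.

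Of the 21 genes fixed for 3′ splice site recognition, 6 had lower values in both v3 libraries than in both v1 libraries and 1 had higher values, where such a separation occurred in 10% and 12.5% of all genes, and none passed the test. U2AF2, SF1 and RBM39 were among the lower ones. U2AF2 was at 201 and 202 FPKM with v3 and at 225 and 238 FPKM with v1, a difference of -0.20 (SE 0.14). SF1, which binds the branch point before U2 snRNP arrives, was at 187.1 and 187.6 FPKM with v3 and at 211 and 222 FPKM with v1 (-0.21, SE 0.14). RBM39, a relative of U2AF2, was at 168 and 177 FPKM with v3 and at 207 and 221 FPKM with v1 (-0.31, SE 0.10). The adjusted p was 1 for each. The knockdown with empty vector had 306.7, 294.5 and 334.1 FPKM of them on average and the control siRNA 199.5, 167.8 and 165.4 FPKM. The S34F libraries gave v3 minus v1 of -0.16, -0.16 and 0.01 (-0.09, -0.04 and -0.03 without replicate 2 of v1 S34F).

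PUF60, another relative of U2AF2, was at 154 and 160 FPKM with v3 and at 152 and 162 FPKM with v1. The paralogs of U2AF1 did not pass the test either. U2AF1L4 was at 20.1 and 18.0 FPKM with v3 and 21.2 and 19.6 FPKM with v1. ZRSR2, which serves the minor spliceosome, was at 8.33 and 10.8 FPKM with v3 and 8.13 and 9.66 FPKM with v1. ZRSR1 was at 1.55 and 2.50 FPKM with v3 and at 0.988 and 0.902 FPKM with v1, with no overlap but an SE of 0.39 around a difference of 0.62. Of all 21 genes of the list 8 lay above and 13 below v1 with a median of -0.03, beside 51.8% above and a median of 0.01 over all genes.

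No gene passed the test, so the genes named next are those with the smallest unadjusted p among genes of at least 3 FPKM whose libraries did not overlap and whose difference was at least 0.58, with 12 per direction. Groups that do not overlap occurred in 12.5% of all genes with v3 higher and in 10% with v3 lower. The genes with v3 higher had differences of 0.59 to 2.95 and unadjusted p of 0.0037 to 0.039. BRSK1, an AMPK-related kinase, had 4.62 and 5.97 FPKM with v3, against 3.24 and 2.55 FPKM with v1 (0.69, SE 0.19). MBOAT2, an acyltransferase of membrane phospholipids, had 23.3 and 24.98 FPKM with v3, against 16.9 and 14.6 FPKM with v1 (0.59, SE 0.17). Neither gene passed over all genes (adjusted p = 1 for both).

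PARP4, the poly(ADP-ribose) polymerase of vault particles, had 24.2 and 19.7 FPKM with v3, against 16.8 and 10.5 FPKM with v1. FSD1L had 6.32 and 10.8 FPKM with v3, against 3.60 and 4.797 FPKM with v1. ZNF688, a zinc finger gene, had 6.61 and 4.37 FPKM with v3, against 3.74 and 2.19 FPKM with v1. The v3 libraries lay above both v1 libraries in each of these 3 genes, as the rule that picked them requires. SNORA73, a small nucleolar RNA, had 24.6 and 27.1 FPKM with v3, against 5.56 and 2.28 FPKM with v1, while the S34F libraries gave -0.47, or 0.62 without replicate 2 of v1 S34F. The MINOS1-NBL1 readthrough had 4.14 and 4.11 FPKM with v3 and 1.81 and 2.03 FPKM with v1, and can share reads with both of its parent genes. The other 5 (RP6-65G23.3, AL162151.3, RP11-178G16.5, RP1-178F15.5 and AL109927.1) carry clone names, and of these AL109927.1 had 4.76 and 9.30 FPKM with v3 and was listed at 0 in both v1 libraries.

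Among genes lower with v3 the differences were -3.33 to -0.59. CTC-246B18.10 had the smallest p of all genes. It was listed at 0 in both v3 libraries and had 4.180 and 15.0002 FPKM with v1 (-3.19, SE 0.44, adjusted p = 0.243). Its level was 12.2 FPKM with the control siRNA and 15.97 FPKM in untreated cells, and the S34F libraries gave 0.40, with v3 higher. Adding 0.1 in place of 1 before taking logs let it pass (adjusted p = 0.00069), as did leaving out replicate 1 of v1. RP11-345J4.6 was likewise listed at 0 with v3 and at 9.79 and 8.32 FPKM with v1, but also at 0 in untreated cells.

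MLLT10, a partner of the histone methyltransferase DOT1L, had 24.6 and 25.1 FPKM with v3, against 39.2 and 37.6 FPKM with v1 (-0.61, SE 0.16). DCAF6, a substrate adaptor of a cullin ubiquitin ligase, had 22.3 and 18.0 FPKM with v3, against 32.8 and 31.5 FPKM with v1 (-0.66, SE 0.18). In MLLT10 the control siRNA libraries had 32.1 and 20.7 FPKM, and the v3 libraries lay between them. The knockdown (30.3 FPKM on average) and untreated cells (28.5 FPKM) lay between v3 and v1. In DCAF6 the control siRNA libraries, at 33.9 and 31.9 FPKM, were close to the v1 libraries. LINC01021, a long noncoding RNA induced by p53 and also called PURPL, had 32.1 and 39.0 FPKM with v3, against 56.1 and 64.5 FPKM with v1. RDM1, a RAD52-like protein, had 2.93 and 1.96 FPKM with v3, against 4.93 and 5.15 FPKM with v1. POFUT2, which adds O-fucose to thrombospondin repeats, had 10.4 and 9.45 FPKM with v3, against 17.1 and 13.99 FPKM with v1. FGGY, a carbohydrate kinase, RAB30-AS1, which is antisense to RAB30 and can share its reads, and 3 clone-named genes (RP11-685N10.1, RP11-386I14.4 and RP11-350N15.4) complete the list.

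**Figure D3:**
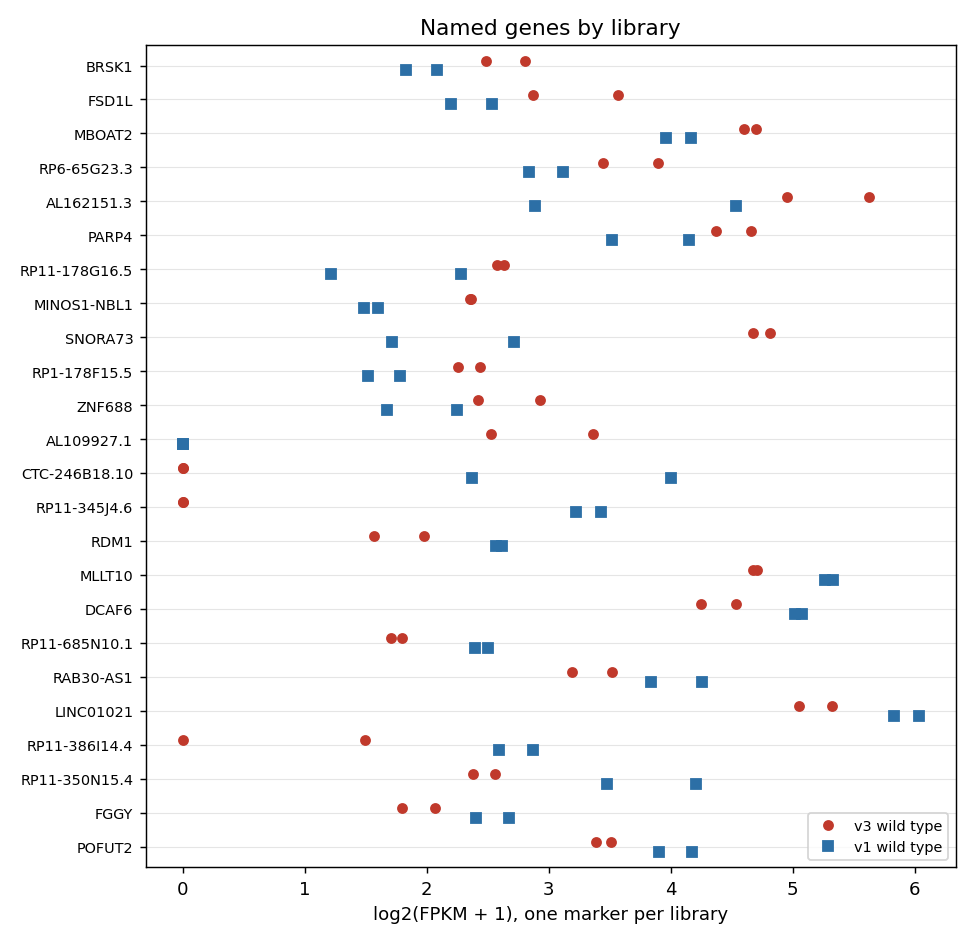
Level of 24 genes named by the rule, as log2(FPKM + 1), with one marker per library and the v3 wild type drawn above the v1 wild type in each row. The upper 12 genes are higher and the lower 12 lower with v3, and none passed the test over all genes.

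The S34F libraries offer a second comparison of v3 with v1, whose differences share no library with the first. The SE of a gene is pooled over all 14 libraries, however, and is the same in both comparisons. The named genes were picked by a small p, which a small SE favors. Their p-values in the S34F libraries are therefore not a separate test, and their share cannot be weighed against that of all genes. In it, 10 of the 12 genes higher with v3 and 10 of the 12 genes lower with v3 kept their direction, where 57.7% of all genes did. MBOAT2 (0.47), RDM1 (-0.56), RP11-685N10.1 (-0.62) and RP11-350N15.4 (-1.23) had an unadjusted p under 0.05 there, as 1.69% of all genes did. The adjusted p was 1 for all 4. Without replicate 2 of v1 S34F, 11 and 10 of the 12 had the same sign (54.5% of all genes), 2 of the 24 had such a p, and 3 genes were called for the S34F constructs, against 0 with all libraries. The interaction of construct and mutation was called in 0 genes (101 at an unadjusted p under 0.05, or 0.71%), and in 3 without that library. Averaged over wild type and S34F, v3 minus v1 was called in 0 genes, with 311 at an unadjusted p under 0.05.

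Isoform usage was compared to ask which isoforms of each gene the construct groups held. Among 41727 isoforms of 11666 genes, the 2 U2AF1 isoforms were the only ones called (0.00479%), and 1493 had an unadjusted p under 0.05 (3.58%). Without replicate 1 of v3 there were 6 calls, and 8 without replicate 2 of v3 or without either replicate of v1. The 95% interval lay within 20 points of 0 for 26552 isoforms (63.6%), with a median half-width of 12.3 points. This interval is unadjusted, and with 2 libraries per group passing over all isoforms took a larger difference. The SF3A2 difference of -29.22 points given below, for example, did not pass. In the S34F libraries the U2AF1 isoforms were again the 2 called (1730 isoforms, or 4.15%, at an unadjusted p under 0.05), and the interaction was called in 0 isoforms (1295 at an unadjusted p under 0.05, or 3.1%). Without replicate 2 of v1 S34F these counts were 11 and 8.

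The 22 other isoforms named here, picked by the rule used for genes, with a difference of at least 10 points, belong to 20 genes, and all had an adjusted p of 0.393 or more. Their libraries did not overlap, as was so for 15.4% of all isoforms with v3 higher and 15.1% with v3 lower. In SF3A2, a subunit of the U2 snRNP that U2AF recruits, ENST00000591121 made up 0.0098% and 0.021% with v3, against 34.9% and 23.5% with v1 (-29.22 points, SE 5.22, adjusted p = 0.701). The longer ENST00000221494 stood at 74.4% and 63.1% with v3, against 45.3% and 52.7% with v1. Between the S34F constructs v3 minus v1 was 1.77 and -5.86 points, and the interaction did not pass (adjusted p = 1 for both). Without replicate 2 of v1 S34F they were -2.41 and -6.07 points. SF3A2 as a gene was at 27.5 and 36.7 FPKM with v3, against 39.6 and 44.6 FPKM with v1.

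Metabolic enzymes were among the rest. For DHCR7, the last enzyme of cholesterol synthesis, ENST00000355527 made up 69.4% and 70.8% with v3, against 48.2% and 49.4% with v1 (21.28 points, SE 4.06), while the control siRNA had 66.3%, the knockdown 62.9% and untreated cells 63.0%. For PEMT, which methylates phosphatidylethanolamine to phosphatidylcholine, ENST00000255389 made up 94.7% and 91.0% with v3, against 71.9% and 75.3% with v1, while the control siRNA had 73.3%, the knockdown 85.7% and untreated cells 85.4%. Chromatin factors also appeared, with the KANSL3 isoform ENST00000354204, of the decay type, at 42.3% and 35.7% with v3 and 17.6% and 18.4% with v1. The ATF7IP isoform ENST00000545723 was at 14.7% and 25.7% with v3 and was close to 0 in both v1 libraries.

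SEMA3C, a secreted guidance cue, had the highest level among these genes after U2AF1, at 84.4 FPKM. Its decay-type isoform ENST00000427167 made up 7.66% and 10.2% with v3, against 24.96% and 21.1% with v1 (-14.12 points, SE 2.65, adjusted p = 0.752). In the S34F libraries v3 minus v1 was -10.86 points (adjusted p = 0.698). ZNF691 ENST00000372506 (-22.67 points, and -21.57 in S34F) and TUBE1 ENST00000604743 (16.85, and 11.91 in S34F) had the same sign there too. Both had an unadjusted p under 0.05 there and neither passed adjustment. The SE of an isoform is likewise the same in both comparisons, so these p-values are not a separate test. In all, 11 of the 22 isoforms had the same sign in the S34F libraries, where 54.1% of all isoforms did (13 of 22 and 51.3% without replicate 2 of v1 S34F). LRRC57 ENST00000397130, at 48.7% and 50.3% with v3 and 82.8% and 79.2% with v1, had the opposite sign there (14.84 points, or 7.57 without replicate 2 of v1 S34F). The others reported were isoforms of FER, RP11-192N10.2, SETD1B, RABEP2, MGA, ERCC6, AC007246.3, KLHL2, GLB1L and FAM161A, all in genes under 10.1 FPKM.

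**Figure D4:**
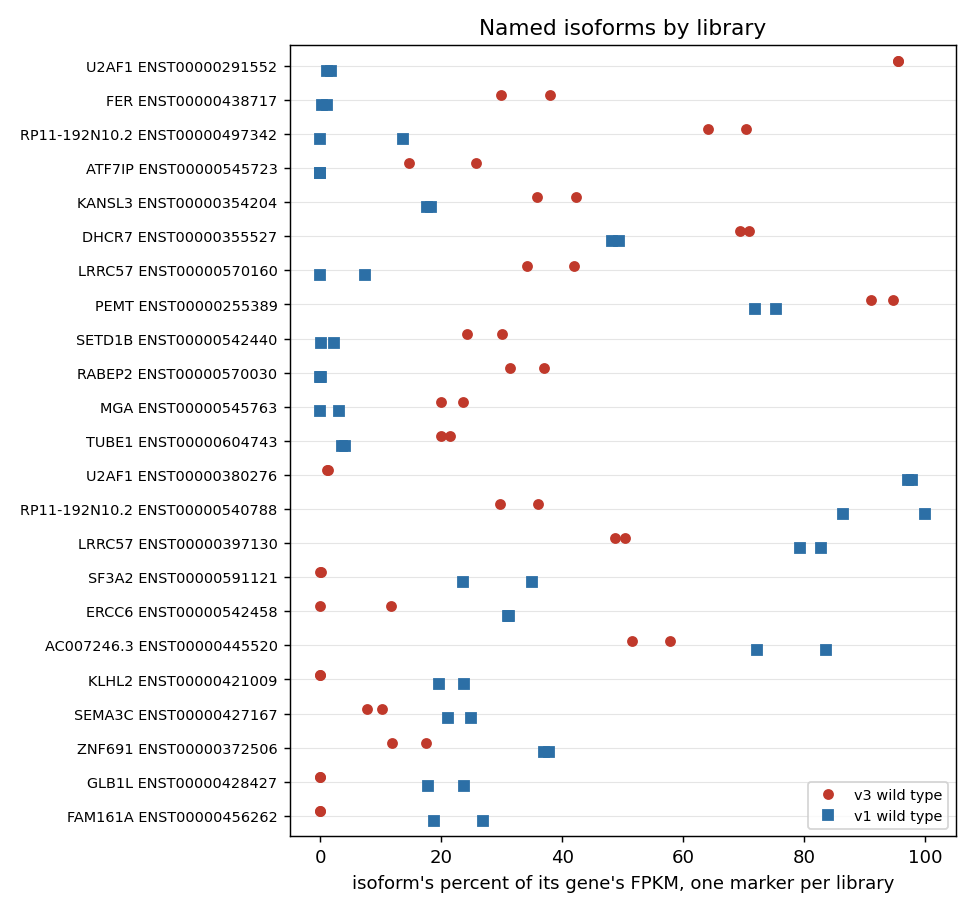
Usage of 23 isoforms as a percent of the FPKM of their gene, with one marker per library and v3 wild type above v1 wild type in each row. The U2AF1 isoforms exchange almost fully, and the 21 others drawn differ by 14.1 to 60.4 points in either direction without passing the test.

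Acceptor usage, the share of the spanning isoforms that use a given 3′ splice site, was tested because this site is what U2AF1 reads. Of 31388 acceptors with variable usage, 2 were called (0.00637%), and 1200 had an unadjusted p under 0.05 (3.82%). There were 5 and 8 calls without replicate 1 and 2 of v3, and 7 and 6 without replicate 1 and 2 of v1. The 2 called with all libraries belong to U2AF1 and are the ends of the alternative exons printed above. The acceptor at position 43100519 stood at 98.4% and 98.0% with v3 and at 1.65% and 2.11% with v1. The acceptor at 43101432 stood at 3.98% and 3.84% with v3 and at 98.4% and 97.6% with v1. These values restate the isoform levels of the constructs and do not measure splicing of an intron. Both acceptors end in CAG.

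The base before the AG is the one at which the S34F mutation is known to shift U2AF1 preference, so acceptors were sorted by it. Acceptors with T at this place numbered 3532, in 2709 genes. With 1 acceptor kept per gene, that of smallest p, 15 were higher and 12 lower with v3 at an unadjusted p under 0.01 and at least 5 points. For C, with 11171 acceptors in 5543 genes, 36 were higher and 27 lower. For A there were 4 and 4 in 1167 genes (1313 acceptors), and for G 3 and 3 in 315 genes (324 acceptors). The numbers higher and lower lay close to each other for each base. The median difference was 0.77 points for T, 0.55 for C, 0.72 for A and 0.07 for G. It was 0.39 over all acceptors with variable usage, a wider set, since upstream bases were known for only 52.39% of them. These medians rested on single libraries. That over all acceptors was -0.03 and 0.96 without replicate 1 and 2 of v3, and 0.99 and -0.28 without replicate 1 and 2 of v1, and that for T ranged from -0.78 to 2.10.

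Genes that respond to U2AF1 were examined next, using those called for the siRNA against U2AF1 with empty vector against the control siRNA, in libraries other than the 4 compared. Of 112 genes that the knockdown raised, 50 lay higher and 62 lower with v3 than with v1, with a median of -0.02. Of 293 genes that it lowered, 175 lay higher with v3 and 118 lower, with a median of 0.03. Over all genes 51.8% lay higher, with a median of 0.01. The S34F libraries gave medians of -0.02 and 0.04 for the same genes (-0.01 and 0.06 without replicate 2 of v1 S34F). For the raised genes the median was 0.0051 without replicate 2 of v3 and 0.0094 without replicate 2 of v1. For the lowered genes it was 0.0093 without replicate 2 of v3 and 0.0050 without replicate 1 of v1. The knockdown itself had medians of 0.68 and -0.85 in these genes.

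Among genes whose splicing is known to depend on the S34F allele, 5 of 19 lay above and 14 below v1 in gene level, with a median of -0.03 (0.02 without replicate 2 of v3). PCBP2, an RNA-binding protein, had ENST00000552819 at 9.95% and 12.5% with v3, against 18.6% and 23.1% with v1 (-9.62 points, SE 2.86). CHCHD7, a mitochondrial protein, had ENST00000355315 at 32.0% and 45.0% with v3, against 25.02% and 24.4% with v1 (13.79 points, SE 5.44), and 22.24 points in the S34F libraries (17.98 without replicate 2 of v1 S34F). Of the 83 isoforms of the list 3 had an unadjusted p under 0.05, beside 3.58% of all isoforms, and none passed adjustment. Of the 61 isoforms in 14 genes whose isoforms switch after the knockdown in the same study, a list chosen from these data, 6 had one, led by FAM161A, a ciliary protein, in which ENST00000405894 made up 35.7% and 33.8% with v3, against 17.0% and 8.45% with v1. For the 25 core spliceosome and helicase genes, the 14 SR protein genes and the 28 hnRNP and PTB genes the medians were -0.03, -0.03 and -0.01, with no gene called. Without replicate 1 of v3 the last 2 were 0.05 and 0.0078, and without replicate 2 of v1 they were 0.06 and 0.0041. That of the hnRNP genes was 0.02 without replicate 2 of v3, and that of the core genes was -0.0018 without replicate 2 of v1.

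Gene lists for cell state were described by their counts and medians. No list held a called gene, and most medians lay within 0.10 of 0. Among lists with at least 8 measured genes, the NF-kB targets and inflammatory cytokines had the median farthest from 0. Of its 21 genes 18 passed the limit of 1 FPKM, and of these 17 lay above v1 with a median of 0.34, beside 51.8% and 0.01 over all genes. IL32, a cytokine, had 15.7 and 21.4 FPKM with v3, against 11.2 and 13.4 FPKM with v1 (0.55, SE 0.30). RELB, an NF-kB subunit, had 16.7 and 21.8 FPKM with v3, against 15.1 and 13.2 FPKM with v1 (0.41, SE 0.26). The groups did not overlap in 4 of the 18 genes with v3 higher and in 1 with v3 lower, beside 12.5% and 10% of all genes.

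The second replicates carried most of this. The median difference was 0.05 between v3 and v1 of replicate 1 and 0.60 between those of replicate 2, and without replicate 2 of v3 the median over the list was -0.03, against 0.64 without replicate 1 of v3 and 0.22 without replicate 1 of v1. The summed FPKM of the list was 511 and 651 with v3 and 492 and 503 with v1. In the S34F libraries all 18 lay higher with v3 (beside 52.1% of all genes), with a median of 0.39, and here too the median was 0.02 for replicate 1 and 0.75 for replicate 2. Without replicate 2 of v1 S34F 16 lay higher, with a median of 0.54. The list of leukocyte and endothelial markers, over 11 of its 12 genes, summed to 39.3 and 44.1 FPKM with v3 and 31.5 and 27.9 FPKM with v1. CD68 made up most of these sums, at 35.3 and 39.4 FPKM with v3 and 28.99 and 24.1 FPKM with v1. CD3E and KDR were listed at 0 in all 4 libraries and PTPRC did not exceed 0.519 FPKM. The endothelial markers VWF and CDH5 reached at most 0.007305 and 0.1015 FPKM, so the higher sums do not describe endothelial genes. Of the 3 genes of that list that passed the limit of 1 FPKM, the myeloid genes CD68 (0.48) and ITGAM (0.59) lay higher with v3 and CD14 (-0.01) did not. The S34F libraries gave differences of 0.03 for CD68, -0.13 for ITGAM and 0.25 for CD14, with a median of 0.03, or 0.21 without replicate 2 of v1 S34F. Their part in the result was not tested.

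Most members of the stress lists lay higher with v3 in the wild type, with no gene called. Of 24 p53 targets 20 lay above v1, with a median of 0.15 that was 0.01 in replicate 1 and 0.25 in replicate 2. It was 0.01 without replicate 2 of v1, 0.09 without either replicate of v3 and 0.22 without replicate 1 of v1. Those of smallest p were GADD45A and PHLDA3. GADD45A, a DNA damage response gene, had 83.8 and 105 FPKM with v3, against 71.5 and 55.6 FPKM with v1 (0.57, SE 0.27). PHLDA3, a repressor of AKT, had 95.9 and 91.5 FPKM with v3, against 86.7 and 72.5 FPKM with v1. Of the 24, 8 lay above v1 in the S34F libraries, with a median of -0.03 (14 of 24 and 0.04 without replicate 2 of v1 S34F). In the unfolded protein and integrated stress response 17 of 20 lay above v1 (median 0.10), with differences of -0.07 to 0.62. Those of smallest p were the pseudokinase TRIB3, at 29.6 and 31.4 FPKM with v3 and 26.5 and 20.3 FPKM with v1, and the asparagine synthetase ASNS, at 56.7 and 62.0 FPKM with v3 and 50.6 and 44.6 FPKM with v1. Here 8 of 20 genes had groups that did not overlap with v3 higher, beside 12.5% of all genes, and the S34F libraries had 14 of 20 above with a median of 0.03 (10 of 20 and 0.0084 without replicate 2 of v1 S34F). The wild-type median was 0.25 without replicate 2 of v3, 0.39 without replicate 1 of v1 and 0.03 without replicate 2 of v1.

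Lists of growth genes had medians nearer to 0. Cytosolic ribosomal protein genes lay above v1 in 29 of 31 cases, but the median was 0.04. It was -0.02 without replicate 1 of v3 or without replicate 2 of v1 and 0.10 without either other library. For S34F 20 of 31 lay above v1 with a median of 0.01, or 1 of 31 and -0.07 without replicate 2 of v1 S34F. For G1/S and DNA replication 23 of 28 genes lay below v1 with a median of -0.08, among them POLA1, a DNA polymerase subunit, at 10.1 and 8.46 FPKM with v3 and 12.3 and 10.8 FPKM with v1. That median was 0.05 without replicate 2 of v1, -0.01 without replicate 1 of v3, and -0.15 and -0.20 without replicate 2 of v3 and replicate 1 of v1. It was 0.06 in the S34F libraries, or 0.01 without replicate 2 of v1 S34F. For G2/M and mitosis 12 of 30 lay above with a median of -0.02, or 0.03 without replicate 2 of v1. The NRF2 targets, which this KEAP1-mutant line expresses constitutively, lay below v1 in 16 of 20 cases with a median of -0.04, which was 0.02 without replicate 2 of v3 and -0.11 without replicate 1 of v3. For S34F 12 of 20 lay above v1 with a median of 0.01, or 3 of 20 and -0.09 without replicate 2 of v1 S34F. The genes encoded in mitochondrial DNA, measured as a guide to RNA quality, lay above v1 in 3 of 15 cases, with a median of -0.05. It was 0.14 and -0.22 without replicate 1 and 2 of v3, -0.24 and 0.19 without replicate 1 and 2 of v1, and 0 after quantile normalization. For S34F 0 of 15 lay above v1 with a median of -0.14, or 15 of 15 and 0.25 without replicate 2 of v1 S34F.

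**Figure D5:**
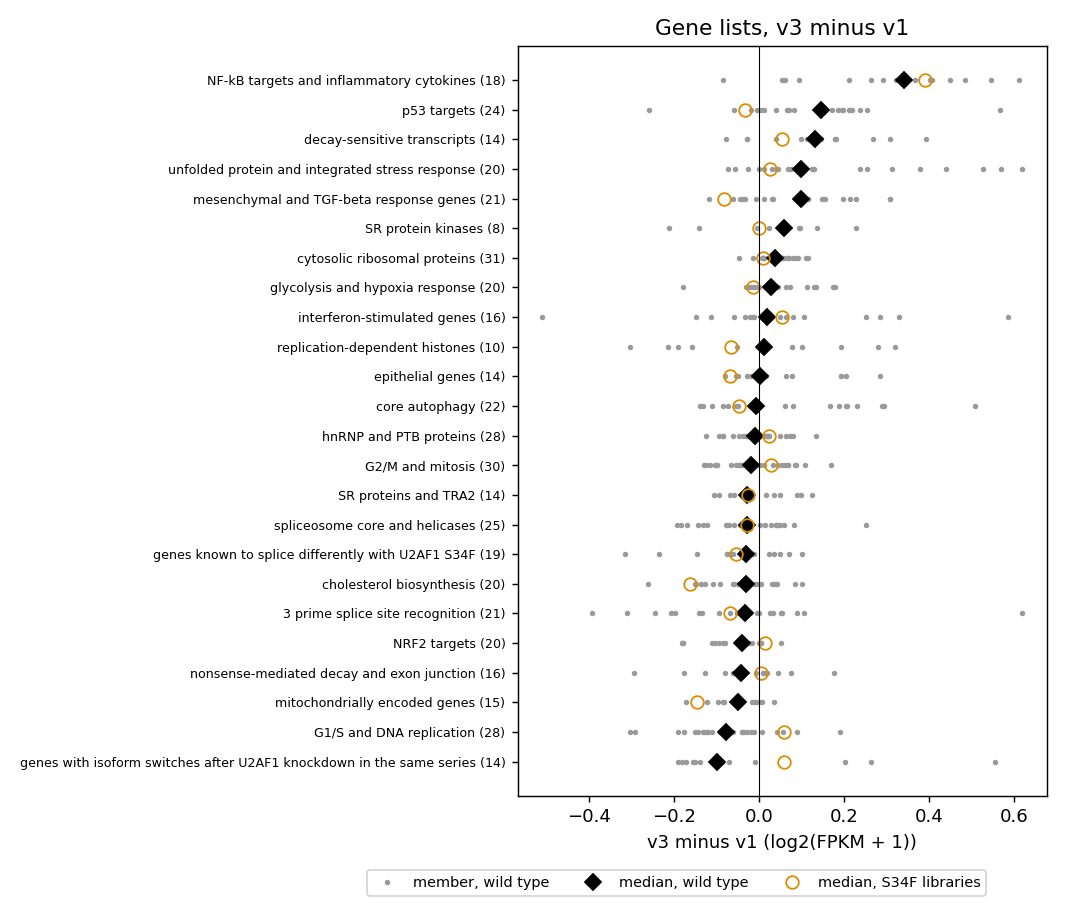
Differences of v3 minus v1 on the log2(FPKM + 1) scale for the members of gene lists with at least 8 measured genes (the number is in brackets), with the median in the wild-type libraries and in the S34F libraries. The NF-kB list has medians of 0.34 and 0.39, and the p53 list 0.15 and -0.03, the last of which is 0.04 without replicate 2 of v1 S34F.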

How the data were processed

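Trimmomatic 0.30 and TopHat2 2.0.12 are the tools, and GRCh37 the build, per the submitters' processing notes. Neither the program that computed FPKM nor the annotation release is given in the sources used here. Each library has an FPKM and a coverage value per isoform, for 195553 isoforms of 57756 genes, per the file headers. Coverage as deposited served only for relative depth, and no read counts could be recovered, so no count model was used.

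Gene FPKM (summed isoforms), isoform usage in percent and acceptor usage in percent were fitted with limma 3.58.1 in R 4.3.3, with a mean for each of 7 groups over all 14 libraries (7 residual degrees of freedom) and Benjamini-Hochberg adjustment over all features. Every p and adjusted p in the report is from these limma fits, two-sided. Genes were tested as log2(FPKM + 1), which understates changes of low genes, if the mean FPKM was at least 1, and 14 genes of the files without a valid estimate in some library were left out. Isoforms had a mean usage of 5 to 95 percent. Acceptors came from GENCODE release 29 exons (GRCh38), with 102288 of 116194 isoforms matched by identifier and length, and upstream bases came from overlapping transcripts, for 52.39% of acceptors. Strand use is not stated, so overlapping and antisense genes can share reads. The fits were tested on simulated data. Those were drawn independently for each library, without the deviations that same-numbered libraries share in the real data.

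Always named were U2AF1, its partners and paralogs. Called features came next, up to 15 per direction, then those of smallest p up to 12 per direction, as stated in the report, and the 2 genes of smallest p in each of 28 lists. The comparison, the lists and the rule were chosen with earlier results of these data known. An isoform and a marker gene that these rules name are not reported here. Alternatives changed the pseudocount, filters, scaling, libraries and replicate block.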

Additional observations from a re-analysis of the deposited data

How the results depend on the processing

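The 2 U2AF1 isoforms were called under every alternative run, except with the model of the 4 compared libraries alone, where 0 isoforms were called and the U2AF1 differences were 94.02 and -96.30 points (adjusted p = 0.183). Gene calls numbered 1 with a pseudocount of 0.1 and 22 without a filter on low values. They numbered 1 to 3 when a library was left out (2 without v3 replicate 1, 1 without v3 replicate 2, 3 without v1 replicate 1 and 2 without v1 replicate 2), against 0 otherwise. Isoform calls numbered 7 with a usage limit of 1 to 99 percent and 6 to 8 when a library was left out (6 without v3 replicate 1 and 8 without each other library). Acceptor calls numbered 10 with an arcsine transform and 5 to 8 when a library was left out (5 and 8 without v3 replicates 1 and 2, 7 and 6 without v1 replicates 1 and 2). A group with a lone library is assumed to vary like the others. The interaction was called in 9 genes without both S34F replicate 2 libraries, and without v1 S34F replicate 2, left out after seeing the data, in 3 genes and 8 isoforms. The cause of these changes was not tested. Total U2AF1 changed sign, lying from -0.136 to 0.349 when a library was left out and at -0.0203 averaged over wild type and S34F, a setting chosen after seeing the data, as did ZRSR2 (-0.0804 to 0.258) and PUF60 (-0.0508 to 0.0442). Of the 46 named genes and isoforms that did not pass, CTC-246B18.10 passed in 2 refits and no other did in 660 refits in all; their sign was largely fixed by the choice of features whose libraries do not overlap. Medians of gene lists moved with single libraries, as given in the report.

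Replicate numbers are shared by all groups, but with 2 numbers the labels do not show that they pair samples. Deviations of same-numbered libraries correlated at 0.56 across genes between v3 and v1 (0.16 to 0.57 over 21 pairs of groups) and at 0.11 for isoform usage. With a replicate block 0 genes (345 at an unadjusted p under 0.05), 2 isoforms, 2 acceptors and 0 interactions were called. Depth as a read number is unknown. The intervals given in the report are unadjusted, and with 2 libraries per group a difference had to be larger than their half-widths to pass. The spread behind the intervals and the main calls also holds what same-numbered libraries share, since that model has no replicate term.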
